A study of Bos taurus with 24 samples.

Results

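Subcutaneous fat of beef cows was compared during feed restriction, before the cows were allowed to regain weight. All arrays of the first biopsy were taken, 6 from cows of high gain and 6 from cows of low gain, which is 12 of the 24 arrays of the study, and high gain minus low gain was fitted across 24997 transcript clusters with 18444 distinct gene symbols. The cows were crossbred, non-pregnant, mature and 5 years old, came from a trial of 121, and had each been offered 120 kcal of metabolizable energy per kg of metabolic body weight for 112 days. The fat lay under the skin between the hooks and pins and was taken from the left side on day 105 of the restriction. Both groups thus shared breed type, age, ration and side. Per the methods the biopsies were spread over 3 collection days, and which cows were sampled on which of them is not given in the sources used here. They were named for weight gain in the ad libitum period that followed, so the gain that separated them was measured after this biopsy. Breed make-up was similar but not identical, and per the methods the high gain cows also ate more once feed was free. The cows are called H1 to H6 for high gain and L1 to L6 for low gain below.

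White adipose tissue stores fatty acids as triglyceride in a large lipid droplet and releases them when feed is short. In cattle it is also the main site where fatty acids are made, largely from acetate that the rumen supplies. The adipocytes that do this fill most of the volume of the tissue, yet they share it with fibroblasts that lay down collagen and other matrix, with capillaries, and with macrophages and other immune cells. A biopsy reads all of these at once.

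Signals were log2 values, 1 array per cow, so that a difference of 1 is a doubling. Array medians lay between 8.26 and 8.34 in high gain and between 8.27 and 8.34 in low gain cows, and pairs of arrays gave a Pearson correlation over clusters of 0.961 to 0.986 within the high gain and 0.967 to 0.986 within the low gain group. The tissue label held: adiponectin (ADIPOQ), a hormone that adipocytes make, read 19.25 to 19.93 on the log2 scale in high gain cows (median 19.61), against 19.04 to 19.67 in low gain cows (median 19.59), close to the end of the scale at 19.93, and the droplet coat protein PLIN1 read 17.83 to 18.89 in high gain cows (median 18.3), against 17.78 to 19.17 in low gain cows (median 18.41). Keratin KRT5 of skin read 4.87 to 5.02 in high gain cows (median 4.96), against 4.8 to 5.14 in low gain cows (median 5.02), among the dimmest signals. No cluster passed an adjusted p of 0.05 in limma, the smallest being 0.0506. At an unadjusted p under 0.05, limma gave 1074 clusters higher in high gain cows (4.3% of those tested) and 1218 lower (4.87%). Of these, 74 (0.296%) were higher and 97 (0.388%) lower by more than 2-fold, and the 74 became 40 without L4, 112 without H4 and 124 without H6. In 55 clusters (0.22%) every high gain cow lay above every low gain cow, and in 71 (0.284%) every high gain cow lay below. With each array centred on its median these numbers were 64 and 51. Below, "higher" and "lower" are used of genes with an unadjusted p under 0.05, and none of them is a call after adjustment. The p in brackets is limma's two-sided p, adjusted over all clusters, with 6 cows a group. It lay between 0.176 and 0.545 for the genes named below as higher or lower, apart from MDGA2 and 1 unnamed cluster. List members given by their difference alone were picked after their values were seen, apart from those among the 3 of smallest p in their list. Where a gene is said to miss the threshold without a cow, its unadjusted p was no longer under 0.05 in a fit without that cow. Among the 18444 named genes, with 1 cluster each, 4.67% were higher and 4.84% lower in that sense, and 0.26% and 0.287% had groups that did not overlap.

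Among named genes higher by more than 2-fold in high gain cows, the smallest p was that of MAN1A1, a Golgi mannosidase that trims the sugar chains of glycoproteins. It read 12.29 to 13.18 on the log2 scale in high gain cows (median 12.64), against 10.48 to 11.93 in low gain cows (median 11.55). The groups did not overlap, and the difference was 1.35 ± 0.24 (SE, adjusted p = 0.321). TGFBR3, the co-receptor betaglycan that presents TGF-beta to its receptors and binds inhibin, read 13.08 to 15.01 on the log2 scale in high gain cows (median 14.04), against 11.34 to 12.85 in low gain cows (median 12.69). The groups did not overlap, and the difference was 1.49 ± 0.32 (SE, adjusted p = 0.377). Cow L4 had the lowest value of all. COL6A3, a chain of the collagen VI that sheathes adipocytes, lay between 14.37 and 15.68 in high gain cows, with a median of 14.8, and between 12.46 and 14.06 in low gain cows, with a median of 13.98. These groups did not overlap either, again with L4 far below the other cows of its group, and the difference was 1.24 ± 0.29 (SE, adjusted p = 0.402). PTGIS, the enzyme that makes prostacyclin in vessel walls, read 10.71 to 12.1 on the log2 scale in high gain cows (median 10.96), against 9.08 to 10.57 in low gain cows (median 9.89). It separated the groups with a difference of 1.35 ± 0.3 (SE, adjusted p = 0.38). The oxygen-sensing transcription factor HIF1A read 15.59 to 17.68 on the log2 scale in high gain cows (median 16.11), against 15.02 to 15.56 in low gain cows (median 15.35). Its groups did not overlap, and the spread was wide in high gain cows only. The difference was 1.05 ± 0.29 (SE, adjusted p = 0.427).

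ENPP1, an enzyme of the cell surface that makes pyrophosphate and that restrains the insulin receptor, read 11.6 to 14.25 on the log2 scale in high gain cows (median 12.43), against 9.96 to 11.68 in low gain cows (median 11.04). In it 5 of the 6 high gain cows lay above every low gain cow, and the difference was 1.63 ± 0.41 (SE, adjusted p = 0.427). GPNMB, a membrane glycoprotein of macrophages that carry lipid, read 12.27 to 14.04 on the log2 scale in high gain cows (median 12.93), against 10.89 to 12.33 in low gain cows (median 11.97), a difference of 1.19 ± 0.32 (SE, adjusted p = 0.427). Smaller but clean separations were seen in HS3ST3A1, which sulfates heparan sulfate chains, with 7.67 to 8.21 on the log2 scale in high gain cows (median 7.81), against 6.83 to 7.35 in low gain cows (median 7.05), in the fibrillin-binding protein ADAMTSL4, with a difference of 0.9 ± 0.17 (SE, adjusted p = 0.344), and in the tubulin gene TUBA1D, with a difference of 0.62 ± 0.13 (SE, adjusted p = 0.377). The other genes of the 15 with the smallest p past 2-fold in this direction were NTN4, MCTP1, CLIC2, ADGRD1, RPL8, COL12A1, TNXB and TNS2. Their differences ran between 1.02 and 1.67.

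The next genes are the 15 named ones with the smallest p among those lower by more than 2-fold in high gain cows. MDGA2, an adhesion molecule known from synapses, had the largest difference of these, -2.66 ± 0.37 (SE, adjusted p = 0.0675). It read 7.02 to 8.33 on the log2 scale in high gain cows (median 7.42), against 8.52 to 11.15 in low gain cows (median 10.4). It did not overlap between the groups. An unnamed transcript cluster had the smallest p of all, at 5.24 to 6.74 on the log2 scale in high gain cows (median 6.01), against 7.45 to 9.5 in low gain cows (median 8.61). It too separated the groups, with a difference of -2.61 ± 0.33 (SE, adjusted p = 0.0506), and it was added to the named genes after its values were seen. CIDEA, which fuses lipid droplets into larger ones, read 8.91 to 10.24 on the log2 scale in high gain cows (median 9.59), against 10.17 to 12.13 in low gain cows (median 10.96). In it 5 of the 6 high gain cows lay below every low gain cow, and the difference was -1.47 ± 0.32 (SE, adjusted p = 0.377). NOG, the secreted noggin that traps bone morphogenetic proteins, read 7.19 to 10.17 on the log2 scale in high gain cows (median 8.38), against 9.46 to 11.04 in low gain cows (median 10.18), a difference of -1.74 ± 0.44 (SE, adjusted p = 0.427). LRIG1, which dampens the EGF receptor, differed by -1.07 ± 0.26 (SE, adjusted p = 0.427), and ENPP4, a relative of ENPP1 on the surface of vessel cells, by -1.2 ± 0.3 (SE, adjusted p = 0.427).

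SFXN2, a carrier of the mitochondrial inner membrane, read 8.37 to 9.49 on the log2 scale in high gain cows (median 8.75), against 9.52 to 10.39 in low gain cows (median 9.85). The groups did not overlap and differed by -1.04 ± 0.23 (SE, adjusted p = 0.38). MPV17L, also of mitochondria and peroxisomes, read 7.41 to 8.09 on the log2 scale in high gain cows (median 7.72), against 8.35 to 10.41 in low gain cows (median 8.61), without overlap, at -1.19 ± 0.29 (SE, adjusted p = 0.427). The actin methyltransferase SETD3 read 11.97 to 13.47 on the log2 scale in high gain cows (median 13.12), against 13.79 to 14.07 in low gain cows (median 13.96), and the low gain cows lay within a narrow band. EMC3, a subunit of the complex that inserts membrane proteins in the endoplasmic reticulum, and the protease inhibitor SERPINI1 separated the groups with differences of -0.75 and -0.53. C26H10orf82 did so at -0.82. TIMP4, PEX19, MASP1, CHPT1, HBB, HBA, GPAM and ANGPT1 complete the 15 with the smallest p past 2-fold, between -2.49 and -1.06.

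**Figure D1:**
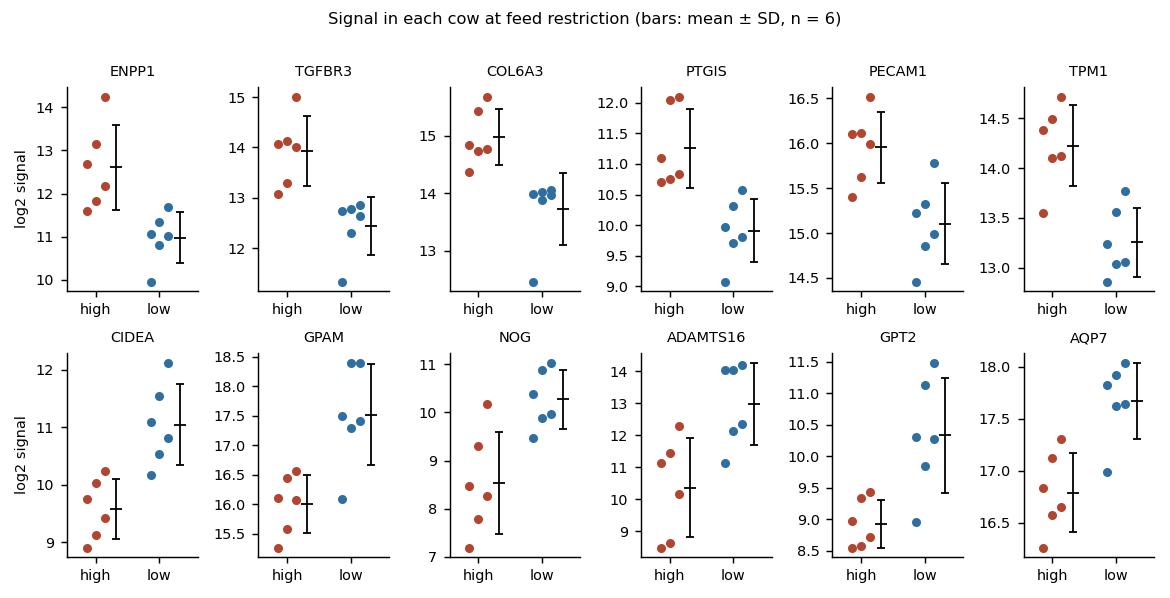
Log2 signal of 12 genes at feed restriction, 1 point per cow, high gain (left) and low gain (right) in each panel, with black bars for the mean ± SD of 6 cows. TGFBR3, COL6A3 and PTGIS do not overlap between the groups, and each other gene has at least 1 cow within the range of the other group.

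Enzymes that build fatty acids mostly had lower signals in high gain cows. Of 18 measured members of the lipogenesis list, 10 were lower (55.6%, against 4.84% of named genes) and none was higher. The median difference was -0.649, against -0.0145 over named genes. Without H5 or without L1 the number was 6. MLXIPL, the carbohydrate response factor ChREBP, read 8.33 to 9.09 on the log2 scale in high gain cows (median 8.75), against 9.28 to 9.7 in low gain cows (median 9.51). It was the one member whose groups did not overlap, with a difference of -0.79 ± 0.16 (SE, adjusted p = 0.344). ACSS2, which turns the acetate of the rumen into acetyl-CoA, read 13.75 to 15.86 on the log2 scale in high gain cows (median 14.8), against 15.72 to 17.86 in low gain cows (median 16.17), and L4 was the highest cow. It differed by -1.5 ± 0.42 (SE, adjusted p = 0.427). ACACA, the acetyl-CoA carboxylase that commits carbon to fat, differed by -1.2 and its partner MID1IP1 by -1.66. The pentose phosphate enzymes that supply NADPH were among the members as well. TKT read 12.87 to 14.69 on the log2 scale in high gain cows (median 13.87), against 14.39 to 16.01 in low gain cows (median 15.01), a difference of -1.18 ± 0.32 (SE, adjusted p = 0.427), and TALDO1 and PGD differed by -0.87 and -0.56. Citrate export (SLC25A1) stood at -1.06, pyruvate dehydrogenase (PDHA1) at -0.43 and the sterol-responsive factor SREBF1 at -0.58. PGD, PDHA1 and SREBF1 each missed the threshold when any of 8 cows was left out, and SLC25A1 without H1, H4, H5 or L1. Without L4 the difference of PGD was -0.36 and that of SLC25A1 -0.64, and without H5 that of SREBF1 was -0.37. In a biopsy, fewer adipocytes and less RNA per adipocyte cannot be told apart.

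In the list mean over these 18 genes, high gain cows lay between 11.83 (H5) and 12.69 (H2) and low gain cows between 12.42 (L5) and 14 (L4). L4 stood highest for complex I too and lowest for matrix genes, and its array took a low weight, 0.589, when arrays were weighted by their spread. H2 took the lowest, 0.513.

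Of 21 genes of triglyceride assembly, which attach fatty acids to glycerol, 6 were lower (28.6%) and 1 higher (4.76%), with a median of -0.065. Among named genes these shares were 4.84% and 4.67%. GPAM, the mitochondrial acyltransferase that starts triglyceride, read 15.27 to 16.56 on the log2 scale in high gain cows (median 16.09), against 16.09 to 18.4 in low gain cows (median 17.46). Its lowest low gain cow fell among the high gain cows, and the difference was -1.5 ± 0.35 (SE, adjusted p = 0.426). AGPAT2, which adds the next fatty acid and whose loss in people abolishes body fat, read 12.03 to 15.25 on the log2 scale in high gain cows (median 14.13), against 14.5 to 17.9 in low gain cows (median 16.17). H5 lay at the bottom of its group and L4 at the top of the other. The difference was -2.08 ± 0.56 (SE, adjusted p = 0.427). GPD1, which makes the glycerol phosphate backbone, read 12.73 to 13.46 on the log2 scale in high gain cows (median 13.2), against 13.42 to 14.66 in low gain cows (median 14.11), at -0.9 ± 0.24 (SE, adjusted p = 0.427). ACSL1, which activates fatty acids, differed by -0.96 ± 0.34 (SE, adjusted p = 0.453), and without L6, the lowest low gain cow by far at 16.5, by -1.32 (adjusted p = 0.03). DGAT2, which completes the molecule, read 17.74 to 19.76 on the log2 scale in high gain cows (median 19.46), against 19.77 to 19.93 in low gain cows (median 19.87). Low gain cows all lay next to the end of the scale at 19.93 and above every high gain cow, so the difference of -0.64 may be cut short. It missed the threshold when each of 7 cows was left out in turn, and without H5 the difference was -0.35. The one higher gene was GPAT3, the acyltransferase of the endoplasmic reticulum, at 1.1. That gene missed the threshold without H2, L1, L2 or L4, and without H5 its difference was 0.68.

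Of 14 lipid droplet proteins, 3 were lower (21.4%, against 4.84% of named genes), 13 had a negative difference and the median was -0.13. LGALS12, a galectin of the droplet surface, read 8.25 to 11.11 on the log2 scale in high gain cows (median 10.82), against 10.45 to 12.72 in low gain cows (median 12.1), with H3 far below the rest, at -1.37 ± 0.52 (SE, adjusted p = 0.477). G0S2, the inhibitor of the first lipase, read 14.16 to 17.01 on the log2 scale in high gain cows (median 16.93), against 16.25 to 19.01 in low gain cows (median 17.16), a difference of -1.27 that missed the threshold without H1, H2, L1 or L3. AQP7, the channel through which glycerol leaves the adipocyte, read 16.26 to 17.3 on the log2 scale in high gain cows (median 16.74), against 16.99 to 18.03 in low gain cows (median 17.73), at -0.88 ± 0.2 (SE, adjusted p = 0.397). Lipolysis itself gave less. Of 19 genes, 2 were lower (10.5%, against 4.84% of named genes, or 1 without H2, H5, L1 or L4), and none was higher. PNPLA2, the first lipase of triglyceride, read 16.33 to 16.9 on the log2 scale in high gain cows (median 16.45), against 16.53 to 17.32 in low gain cows (median 16.56), at -0.27 (adjusted p = 0.631). The 2 were receptors: FFAR4, a receptor for long fatty acids, at -0.94 ± 0.35 (SE, adjusted p = 0.469), and ADORA1, the adenosine receptor that holds lipolysis down, at -0.73 ± 0.28 (SE, adjusted p = 0.479), which missed the threshold without H2, H5, L1 or L4. Of 15 genes of fatty acid uptake, 1 was higher (6.67%, against 4.67% of named genes), CAV1 of the caveolae, at 0.32 ± 0.11 (SE, adjusted p = 0.449).

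By their brightest cluster, all 37 measured genes of the list for respiratory complex I had a negative difference, and 10 were lower (27%), with a median of -0.387. For NDUFB4 that difference was -0.02, and a second, dimmer cluster of the gene differed by 0.32. Without L6 the number of lower genes was 20. NDUFA10 read 9.82 to 10.2 on the log2 scale in high gain cows (median 10), against 10.25 to 11.87 in low gain cows (median 10.51), without overlap, with L4 as the highest cow by a wide step, and its difference was -0.71 ± 0.23 (SE, adjusted p = 0.437). NDUFA12 read 10.69 to 11.34 on the log2 scale in high gain cows (median 10.87), against 11.24 to 11.94 in low gain cows (median 11.45), at -0.54 ± 0.15 (SE, adjusted p = 0.427), and NDUFC2 differed by -0.43. Of 22 genes of the TCA cycle, 6 were lower (27.3%, or 3 without H4) and 20 had a negative difference. IDH3B, a subunit of isocitrate dehydrogenase, read 9.78 to 10.31 on the log2 scale in high gain cows (median 10.13), against 10.16 to 11.45 in low gain cows (median 10.63), at -0.66 ± 0.19 (SE, adjusted p = 0.427). Fumarase (FH) differed by -0.5 and malate dehydrogenase 1 (MDH1) by -0.75. Of 26 mitochondrial carriers, 8 were lower (30.8%), among them SLC25A4, which trades ADP for ATP, at -0.99 ± 0.36 (SE, adjusted p = 0.466). In that gene L4 read 14.81 and the next cow 12.97, and without L4 the difference was -0.62.

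Fatty acid oxidation gave 5 lower of 18 (27.8%, against 4.84% of named genes), with a median of -0.316. The number was 2 without H2, H5, L3 or L4 and 3 without L1 or L2. ACADS, the dehydrogenase for short chains, read 10.6 to 11.54 on the log2 scale in high gain cows (median 11.23), against 11.33 to 12.45 in low gain cows (median 12.06), at -0.79 ± 0.22 (SE, adjusted p = 0.427), the clearest of them. SLC25A20, which carries acylcarnitine into the matrix, differed by -0.66. Among 20 peroxisomal genes, 3 were lower (15%, against 4.84% of named genes, or 5 without H1). They were PEX19, ACOX2, an oxidase of branched chains, at -0.63 ± 0.19 (SE, adjusted p = 0.427), and ABCD2, a transporter of very long fatty acids, at -1.04. ABCD2 missed the threshold without H2, H5 or L3. Cholesterol synthesis had 2 lower of 20 (10%, against 4.84% of named genes). SC5D, a late desaturase of the pathway, read 13.12 to 14.24 on the log2 scale in high gain cows (median 13.67), against 14.21 to 14.7 in low gain cows (median 14.47), at -0.82 ± 0.18 (SE, adjusted p = 0.38), and IDI1, which isomerises the isoprene unit, read 10.79 to 13.29 on the log2 scale in high gain cows (median 11.84), against 12.2 to 13.56 in low gain cows (median 13.13), at -1.08 ± 0.38 (SE, adjusted p = 0.452).

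Genes that move amino groups and branched-chain carbon were lower in 8 of 30 (26.7%, or 5 without L2), and none was higher. GPT2, the mitochondrial alanine aminotransferase, read 8.55 to 9.43 on the log2 scale in high gain cows (median 8.85), against 8.95 to 11.49 in low gain cows (median 10.29). The high gain cows lay within a narrow band that the lowest low gain cow entered, and the difference was -1.4 ± 0.36 (SE, adjusted p = 0.427). SLC16A1, the carrier of lactate, pyruvate and ketone bodies, read 11.06 to 13.3 on the log2 scale in high gain cows (median 13.06), against 12.91 to 15.19 in low gain cows (median 14.47), with H5 well below its group, at -1.49 ± 0.41 (SE, adjusted p = 0.427). BCKDHB, a subunit of the dehydrogenase that degrades leucine, isoleucine and valine, differed by -0.7 ± 0.22 (SE, adjusted p = 0.427). Its companion DBT stood at -0.66, and PCK2, the mitochondrial enzyme that makes phosphoenolpyruvate, at -1.01, which missed the threshold without H2, H5, L2 or L3.

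Sphingolipid enzymes went both ways, 4 higher and 4 lower of 27, with a median of 0.037. That is 14.8% each, against 4.67% and 4.84% of named genes. SPTLC2, a subunit of the enzyme that starts the pathway, was higher by 0.94 (0.62 without H2), and KDSR, which reduces the product of that step, was lower. KDSR read 12.11 to 14 on the log2 scale in high gain cows (median 13.29), against 13.16 to 15.05 in low gain cows (median 14.38), at -1.12 ± 0.34 (SE, adjusted p = 0.427). SGMS1, which makes sphingomyelin out of ceramide, was higher at 0.59 ± 0.2 (SE, adjusted p = 0.446), whereas SGPL1, the lyase that breaks down sphingosine 1-phosphate, was lower at -0.97 ± 0.27 (SE, adjusted p = 0.427). Of the ceramidases, ACER2 was higher by 0.54 and ACER3 lower by 1.15. In the synthesis of phosphatidylcholine and phosphatidylethanolamine, 4 of 20 were lower (20%, against 4.84% of named genes) and none was higher. Beside CHPT1, these were choline kinase CHKA at -0.58 ± 0.2 (SE, adjusted p = 0.452), the methyltransferase PEMT at -0.49 ± 0.18 (SE, adjusted p = 0.472) and the decarboxylase PISD at -0.37, which missed the threshold when any of 8 cows was left out and was -0.22 without H6.

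**Figure D2:**
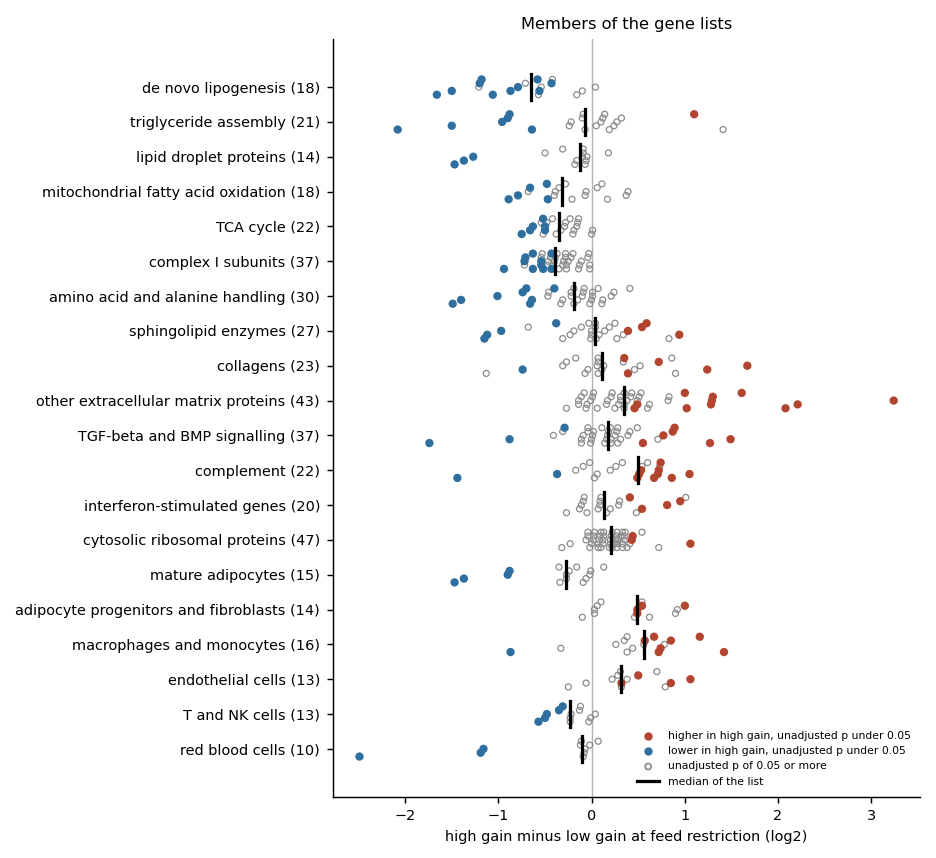
High gain minus low gain at feed restriction (log2) for each measured member of 20 gene lists, 1 point per gene, with the number of members in brackets. Filled points have an unadjusted p under 0.05, black strokes are list medians, which run between -0.649 for lipogenesis and 0.564 for macrophages.

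Matrix genes mostly had positive differences. Of 43 matrix proteins other than collagens, 11 were higher (25.6%, against 4.67% of named genes), none was lower, and the median difference was 0.351. FBN1, the fibrillin of elastic microfibrils, read 14.33 to 15.76 on the log2 scale in high gain cows (median 15.44), against 12.4 to 14.79 in low gain cows (median 14.27), at 1.29 ± 0.36 (SE, adjusted p = 0.427). THBS1, a thrombospondin that activates TGF-beta, read 11.02 to 19.09 on the log2 scale in high gain cows (median 13.1), against 9.72 to 11.5 in low gain cows (median 10.19). H2 alone carried the upper end, and without it the difference of 3.24 was 2.15. TNFAIP6, which links hyaluronan chains, read 8.45 to 12.58 on the log2 scale in high gain cows (median 10.71), against 6.69 to 9.12 in low gain cows (median 8.72), at 2.21 ± 0.62 (SE, adjusted p = 0.427). The large proteoglycan VCAN read 9.22 to 15.14 on the log2 scale in high gain cows (median 11.97), against 9.37 to 10.77 in low gain cows (median 9.57), again with H2 highest, at 2.08 ± 0.75 (SE, adjusted p = 0.455). THBS2, a second thrombospondin, read 10.84 to 13.28 on the log2 scale in high gain cows (median 12.04), against 10.3 to 11.39 in low gain cows (median 10.41), at 1.28 ± 0.35 (SE, adjusted p = 0.427). SRPX stood at 1.61 and MFAP2 at 0.46. THBS1, TNFAIP6, VCAN and FBN1, like AGPAT2 and DGAT2 above, were picked after their values were seen.

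Collagens were split, 5 higher (21.7%) and 1 lower (4.35%) of 23, with a median of 0.113. Among named genes these shares were 4.67% and 4.84%. COL12A1, which decorates collagen fibrils, read 11.25 to 14.19 on the log2 scale in high gain cows (median 12.43), against 10.19 to 11.71 in low gain cows (median 10.55), at 1.67 ± 0.44 (SE, adjusted p = 0.427), and COL6A6, another collagen VI chain, differed by 0.72 ± 0.24 (SE, adjusted p = 0.437). COL15A1, of basement membranes, was the lower one at -0.74. Tenascin X (TNXB), which spaces collagen fibrils, read 10.53 to 11.99 on the log2 scale in high gain cows (median 10.84), against 8.46 to 10.62 in low gain cows (median 9.75), at 1.3 ± 0.35 (SE, adjusted p = 0.427). Of 25 matrix proteases and their inhibitors, 2 were higher and 2 lower (8% each), and the higher number was 1 to 5 as each cow was left out (1 without H1, H2, H3, L1, L4 or L6, 4 without H5 or L5, 5 without H6). ADAMTS16, a secreted protease, read 8.49 to 12.29 on the log2 scale in high gain cows (median 10.65), against 11.12 to 14.21 in low gain cows (median 13.19), at -2.62 ± 0.71 (SE, adjusted p = 0.427), one of the largest differences of all, with H2 and H5 lowest. MMP2, which cleaves denatured collagen, differed by 0.95 ± 0.37 (SE, adjusted p = 0.479), and it was 0.63 without L4 and missed the threshold without L3. TIMP1, an inhibitor of such proteases, differed by 0.93 and missed the threshold when any of 7 cows was left out.

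In the TGF-beta and BMP pathway 6 of 37 were higher (16.2%) and 3 lower (8.11%), with a median of 0.177. Among named genes these shares were 4.67% and 4.84%. The higher ones fell to 2 without L2 and to 3 without L1 or L3, and the lower ones to 1 without H1. Receptors made up part of the list: TGFBR3, TGFBR2 at 0.55 and the co-receptor endoglin (ENG) at 0.77. TGFBR2 missed the threshold when any of 8 cows was left out and ENG when any of 7 was, and the difference of TGFBR2 was 0.33 without L4. CD109, a co-receptor that holds the signal back, read 10.42 to 11.94 on the log2 scale in high gain cows (median 11.53), against 10.29 to 10.78 in low gain cows (median 10.5), at 0.89 ± 0.21 (SE, adjusted p = 0.427), and H2 was the one high gain cow among the low gain values. Follistatin genes, which trap activins, were higher too (FST 0.87 and FSTL3 1.27). On the BMP side NOG, the ligand BMP2 (-0.88) and the receptor BMPR1B (-0.29) were lower. FST missed the threshold with 8 of the cows each left out, FSTL3 with 7, BMP2 without H1, H5, L1, L3 or L4 and BMPR1B without H1, H3, H4, L2 or L5. Without H2, the highest cow in both, the difference of FST was 0.45 and that of FSTL3 0.64.

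Insulin and IGF signalling gave 2 higher and 1 lower of 26 (4 higher without H3 or L5, 1 higher without H4, H5, L2 or L4, 2 lower without H6, L2 or L3). That is 7.69% higher and 3.85% lower, against 4.67% and 4.84% of named genes, so the list lay near those shares. IGF1, the growth factor, read 8.57 to 10.2 on the log2 scale in high gain cows (median 9.74), against 9.57 to 11.43 in low gain cows (median 10.67), at -1.08 ± 0.32 (SE, adjusted p = 0.427), and its carrier IGFBP3 was higher by 1.23, although it missed the threshold with 9 of the cows each left out. Of 17 adipokines and related genes, 2 were higher and 2 lower (11.8% each, or 1 higher without H3 or any low gain cow, 1 lower without H3, H5, L2, L4 or L5). The chemerin gene RARRES2 read 10.71 to 11.43 on the log2 scale in high gain cows (median 10.93), against 9.9 to 11.06 in low gain cows (median 10.28), at 0.61 ± 0.2 (SE, adjusted p = 0.437). NNAT, a small membrane protein of the endoplasmic reticulum and no hormone itself, read 15.65 to 19.08 on the log2 scale in high gain cows (median 17.8), against 18.13 to 19.93 in low gain cows (median 19.24), at -1.63 ± 0.55 (SE, adjusted p = 0.446). The highest low gain value stood at the end of the scale, so this difference may be cut short. Leptin (LEP) varied within the groups more than between them, at 9.71 to 14.45 in high gain cows (median 12.18), against 10.27 to 13.62 in low gain cows (median 12.65), with a difference of -0.27 ± 0.68 (SE, adjusted p = 0.933).

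Vessel genes were higher in 4 of 13 (30.8%, or 7 without H4), none was lower, and the median was 0.323. PECAM1, the junction protein that marks endothelium, read 15.4 to 16.52 on the log2 scale in high gain cows (median 16.04), against 14.46 to 15.78 in low gain cows (median 15.1), at 0.85 ± 0.22 (SE, adjusted p = 0.427). TEK, the receptor of angiopoietins, read 10.69 to 12.3 on the log2 scale in high gain cows (median 12.12), against 9.88 to 11.43 in low gain cows (median 10.87), at 1.06 ± 0.31 (SE, adjusted p = 0.427), and its ligand ANGPT1, lower in the same cows, read 7.01 to 9.11 on the log2 scale in high gain cows (median 8.12), against 8.86 to 9.78 in low gain cows (median 9.43), at -1.23 ± 0.31 (SE, adjusted p = 0.427). CDH5, the cadherin of endothelial junctions, differed by 0.5 ± 0.17 (SE, adjusted p = 0.452), whereas VWF, stored in endothelial granules, differed by 0.38 (adjusted p = 0.636). Among smooth muscle genes TPM1, a tropomyosin, read 13.55 to 14.72 on the log2 scale in high gain cows (median 14.25), against 12.86 to 13.77 in low gain cows (median 13.15). Only H5 lay among the low gain cows, and the difference was 0.97 ± 0.2 (SE, adjusted p = 0.355). It was 1 of 12 (8.33%, against 4.67% of named genes, or 2 genes without H2, H5 or L1, 3 without L5), and MYH11, the myosin that defines the cell type, differed by 0.55 (adjusted p = 0.732). H4 was lowest and H2 highest of the high gain cows in the mean of the endothelial list, at 11.61 and 12.28, against 11.25 (L2) to 11.95 (L6) in low gain cows.

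Markers of macrophages were higher in 7 of 16 (43.8%) and lower in 1 (6.25%), with a median of 0.564, the largest of the 42 lists. CD14, the receptor for bacterial lipopolysaccharide, read 9.97 to 11.22 on the log2 scale in high gain cows (median 11), against 9.34 to 10.52 in low gain cows (median 10.05), at 0.85 ± 0.25 (SE, adjusted p = 0.427). The haemoglobin scavenger CD163 is, like CD68 and CD14, a defining marker of this list. It read 9.96 to 11.63 on the log2 scale in high gain cows (median 10.27), against 8.17 to 10.18 in low gain cows (median 9.54). The 2 groups overlapped by a little at L5 and L6. CD68 of lysosomes read 10.19 to 13.3 on the log2 scale in high gain cows (median 11.89), against 9.41 to 11.96 in low gain cows (median 10.62), with H1 and H3 highest. VSIG4, a complement receptor of resident macrophages, was the lower one, at -0.87, and missed the threshold without H2, H5, L4, L5 or L6, with a difference of -0.57 without L4. In the list mean high gain cows lay between 9.3 (H6) and 10.15 (H1), and low gain cows between 8.93 (L1) and 9.7 (L6).

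Complement genes were higher in 9 of 22 (40.9%) and lower in 2 (9.09%), with a median of 0.5. C1QB and C1QA, chains of the recognition molecule C1q that macrophages make and that the macrophage list also holds, differed by 0.67 ± 0.19 (SE, adjusted p = 0.427) and by 0.72. C4A, the component cleaved next, read 9.05 to 9.92 on the log2 scale in high gain cows (median 9.33), against 8.24 to 9.17 in low gain cows (median 8.74), at 0.71 ± 0.2 (SE, adjusted p = 0.427). SERPING1, the inhibitor that stops C1, read 14.92 to 15.92 on the log2 scale in high gain cows (median 15.26), against 13.01 to 15.03 in low gain cows (median 14.35), at 1.05 ± 0.31 (SE, adjusted p = 0.427). C1R, CFB, CFI, CD46 and C3AR1 were higher by 0.49 to 0.86. The 2 lower genes were MASP1, a protease of the lectin pathway, and C5, at -0.37 (1 lower without H4, H6 or L4). C1R missed the threshold without H3, C3AR1 without H1, H3, H5, L1, L4 or L5, and CD46 without H2, H3, H5, L1, L2 or L4. The macrophage list moved with these genes, and its part in their differences was not tested.

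Lymphocyte and blood genes pointed the other way. Of 13 T and NK cell genes 5 were lower (38.5%) and 12 had a negative difference, with a median of -0.227. The number was 2 without H2, H6 or L4, and 3 without L1 or L6. CD8A, which marks cytotoxic cells, read 6.45 to 6.88 on the log2 scale in high gain cows (median 6.79), against 6.76 to 7.3 in low gain cows (median 7.05), below the array median, at -0.31 ± 0.12 (SE, adjusted p = 0.472). CD3E, a chain of the T cell receptor complex, read 8.76 to 9.49 on the log2 scale in high gain cows (median 9.2), against 9.14 to 10.14 in low gain cows (median 9.63), at -0.5, and missed the threshold without H2, H6, L1, L4 or L6. Of 8 neutrophil genes 2 were lower (25%, against 4.84% of named genes). They were S100A9 at -0.84 ± 0.32 (SE, adjusted p = 0.475), or -0.55 without L4, and CXCR2 at -0.37. CXCR2 missed the threshold when each of 8 cows was left out in turn. No gene of 8 for B cells or 7 for mast cells was higher or lower.

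Some red cell genes were lower too. HBB, the beta chain of haemoglobin, read 7.59 to 9.37 on the log2 scale in high gain cows (median 8.07), against 8.83 to 12.53 in low gain cows (median 10.45), at -2.49 ± 0.57 (SE, adjusted p = 0.399), and HBA, the alpha chain, read 7.32 to 8.83 on the log2 scale in high gain cows (median 7.91), against 8.61 to 9.95 in low gain cows (median 8.85), at -1.19 ± 0.28 (SE, adjusted p = 0.402). GYPC, a membrane protein of red cells, read 11.37 to 12.93 on the log2 scale in high gain cows (median 11.65), against 12.48 to 14.28 in low gain cows (median 13), at -1.16 ± 0.32 (SE, adjusted p = 0.427). These were 3 of 10 (30%, against 4.84% of named genes), and the median of the list was -0.104. In high gain cows the medians of HBB and HBA lay below every array median, while GYPC was brighter. Which cells the RNA of these 3 genes came from was not tested. In the list mean high gain cows lay between 8.15 (H4) and 8.64 (H6) and low gain cows between 8.54 (L3) and 9.15 (L5), so that 5 of the 6 high gain cows fell below every low gain cow. The part of blood in the lymphocyte and neutrophil differences was not tested.

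**Figure D3:**
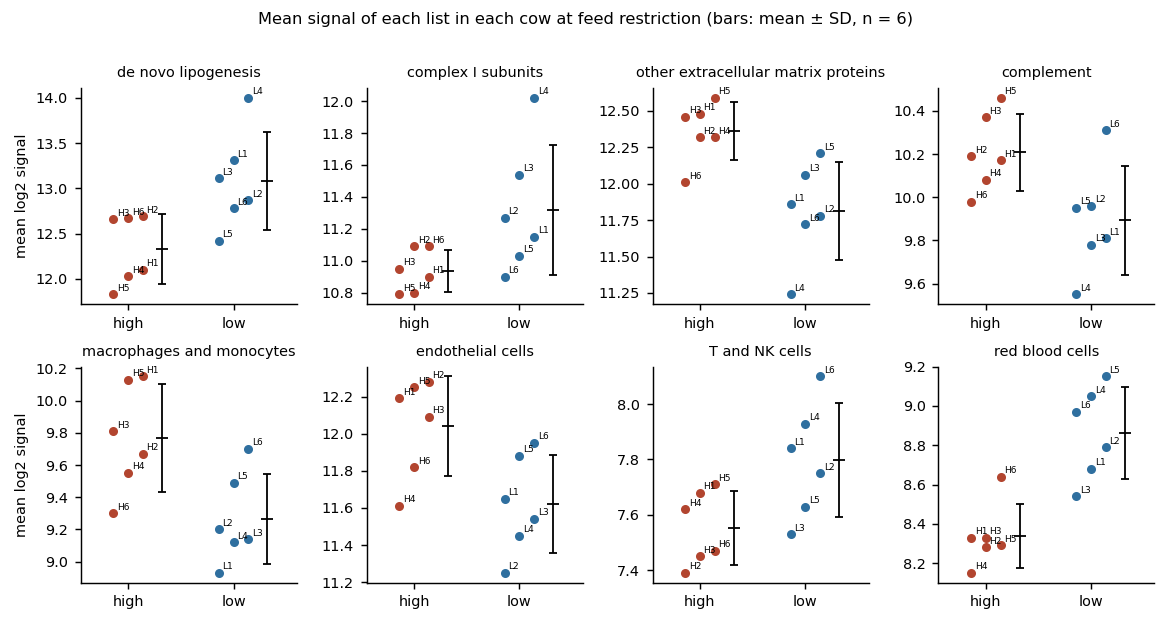
Mean log2 signal of 8 gene lists in each cow at feed restriction, high gain (left) and low gain (right), with black bars for the mean ± SD of 6 cows. L4 is highest for lipogenesis (14) and complex I (12.02) and lowest for matrix proteins (11.24), and the groups overlap in every list.

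Markers of fibroblasts and progenitors were higher in 4 of 14 (28.6%), with a median of 0.492, and in 1 without H4, H5, L2 or L4. CD34, a surface glycoprotein of progenitors and vessels, read 12.6 to 13.62 on the log2 scale in high gain cows (median 12.94), against 12.09 to 12.86 in low gain cows (median 12.53), at 0.49 ± 0.18 (SE, adjusted p = 0.462). PDGFRA, the receptor that defines the progenitors, read 11.67 to 12.63 on the log2 scale in high gain cows (median 12.32), against 10.39 to 12.18 in low gain cows (median 11.93), at 0.54 (adjusted p = 0.586). Of 15 genes of mature adipocytes 4 were lower (26.7%, against 4.84% of named genes), with a median of -0.267. These were CIDEA, AQP7, GPD1 and LGALS12, all shared with the lipid lists, whereas ADIPOQ and PLIN1 differed by 0.13 (adjusted p = 0.799) and by -0.09 (adjusted p = 0.931). No gene of 14 for skeletal muscle, 12 for skin or 8 for nerve was higher or lower. PMP2, a myelin protein, read 11.37 in L5 and no more than 7.35 in any other cow.

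Interferon genes were higher in 4 of 20 (20%, against 4.67% of named genes, or 1 without H3, 2 without H6 or L4). MX1, an antiviral GTPase, read 9.75 to 11 on the log2 scale in high gain cows (median 10.43), against 8.81 to 10.17 in low gain cows (median 9.53), at 0.95 ± 0.24 (SE, adjusted p = 0.427). RSAD2, which makes a chain-terminating nucleotide, differed by 0.81 and missed the threshold without H1, H3 or L4. Of 13 MHC class II genes 1 was higher (7.69%) and 2 were lower (15.4%, or none without H6 or L2). BOLA-DYA, which belongs to a class II pair found in ruminants, read 6.97 to 7.24 on the log2 scale in high gain cows (median 7.18), against 6.66 to 6.95 in low gain cows (median 6.81). It was dim, yet the groups did not overlap, at 0.34 ± 0.09 (SE, adjusted p = 0.427). BOLA-DQA2 read 6.08 to 8.19 on the log2 scale in high gain cows (median 7.26), against 7.2 to 8.78 in low gain cows (median 8.45), lower at -0.92, and missed the threshold without H6 or L2. Of 28 chemokine genes 2 were higher (7.14%, against 4.67% of named genes, or none without H1 or L4). CCL2, which draws in monocytes, read 7.95 to 14.72 on the log2 scale in high gain cows (median 8.85), against 7.45 to 8.07 in low gain cows (median 7.73), and the value of H2 stood far above the other cows. Its difference of 2 was 1.01 without H2, and it missed the threshold when each of 8 other cows was left out in turn.

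Of 22 immediate early genes 1 was higher (3 without H3, H6 or L5), which is 4.55%, near the 4.67% of named genes. It was KLF6, at 12 to 14.6 in high gain cows (median 12.58), against 10.94 to 12.6 in low gain cows (median 11.75). H2 was the highest cow, the difference of 0.98 was 0.62 without it, and the gene missed the threshold without H2, H4, L1, L2 or L3. Of 17 genes that glucocorticoids induce, 2 were higher (11.8%, or 5 genes without L5, none without H5, L1, L3 or L4). These, MT2A and FKBP5, were higher by 1.65 and 1.2, with H2 highest in both. Without H2 the differences were 1.06 and 0.78, and both missed the threshold, as MT2A did with 6 and FKBP5 with 5 of the other cows each left out. None of 23 cell cycle genes was higher or lower. Of 47 cytosolic ribosomal proteins 41 had a positive difference and 3 were higher (6.38%, against 4.67% of named genes, or 10 genes without H4, 9 without H6, 6 without L6, 5 without H3). RPL8, of the large subunit, read 9.47 to 11.28 on the log2 scale in high gain cows (median 10.32), against 8.78 to 10.01 in low gain cows (median 9.36) for its brighter cluster, at 1.06 ± 0.28 (SE, adjusted p = 0.427), and a second cluster of that gene differed by 0.56.

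Of microRNA genes, MIR145, known for holding smooth muscle in its contractile state, read 11.1 to 12.82 on the log2 scale in high gain cows (median 11.7), against 9.54 to 11.93 in low gain cows (median 10.37), at 1.33 ± 0.36 (SE, adjusted p = 0.427). L1 was the one low gain cow within the range of the high gain group. MIR421 read 9.7 to 11.2 on the log2 scale in high gain cows (median 10.58), against 8.16 to 10.92 in low gain cows (median 9.37), at 1.07 ± 0.4 (SE, adjusted p = 0.475), and MIR2330 was lower at -1.08 and missed the threshold with 7 of the cows each left out.

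The same cows were biopsied again, from the right side, on day 49 of ad libitum feeding, and those arrays were not used to name the genes above. Of the 74 clusters higher by more than 2-fold at restriction, 9 (12.2%) had an unadjusted p under 0.05 in the same direction at ad libitum feeding, against 3.42% of all clusters, and their median difference was 0.12, against 1.2 at restriction. Of the 97 lower ones it was 10 (10.3%), against 3.69%, with a median of -0.2, against -1.22 at restriction. Both sets were chosen for large differences on the restriction arrays, so smaller differences on other arrays can follow from that choice alone. The part of diet in the smaller medians of these sets was not tested. Of the 55 clusters that were higher without overlap at restriction, 2 (3.64%) had such a p at ad libitum feeding, and of the 71 lower ones 4 (5.63%), shares near those of all clusters. None of the 55 or 71 was without overlap again, where 0.216% and 0.164% of all clusters were without overlap at ad libitum feeding. The lipogenesis list had a median of -0.021 at ad libitum feeding, complex I of -0.013 and complement of 0.038, whereas that of the macrophage list was 0.42, with none of 16 genes higher or lower, and that of the progenitor list 0.455, with 7 of 14 higher. Endothelial genes had a median of -0.417 there, with 5 of 13 lower (against 4.05% of named genes) and none higher, and 13 of 23 cell cycle genes were higher (against 3.44%).

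Single genes showed these patterns. They were chosen with the restriction values known, so a smaller difference at ad libitum feeding can follow from that choice alone. FBN1 differed by 1.21 at ad libitum feeding, against 1.29 at restriction, and GPT2 by -0.89, against -1.4, and neither had an unadjusted p under 0.05 at ad libitum feeding. MDGA2 kept most of its difference, at -2.04 ± 0.41 (SE, unadjusted p = 0.000242 and adjusted p = 0.331 in limma), against -2.66 at restriction. Its groups overlapped at ad libitum feeding. AGPAT2 (-0.05), ADAMTS16 (0.07), SLC16A1 (0.1), GPAM (0.15), NOG (0.1), PTGIS (0.04) and HIF1A (0) were close to 0. MIR145 read 9.42 to 10.45 in high gain cows (median 10.01), against 10.85 to 11.93 in low gain cows (median 11.27) at ad libitum feeding, a difference of -1.39 with the sign turned. The gain difference was tested for a difference between the diets on the difference of the 2 arrays of each cow, in limma over all clusters. At an adjusted p under 0.05, 2 clusters passed (0.008%), and 2347 (9.39%) did at an unadjusted one. The 2 were CYYR1, a small membrane protein, and SORBS2, an adaptor of the actin cytoskeleton, both looked at after their values were seen. CYYR1 read 14.63 to 16.2 on the log2 scale in high gain cows (median 15.49), against 13.87 to 15.3 in low gain cows (median 14.73) at restriction, and 13.73 to 14.58 in high gain cows (median 14.29), against 14.23 to 15.79 in low gain cows (median 15.16) at ad libitum feeding. Its gain difference thus stood at 0.81 in the first biopsy and at -0.81 in the second, a change of 1.63 ± 0.2 (SE, adjusted p = 0.0316). SORBS2 differed by 0.59 and by -0.91, a change of 1.5 ± 0.2 (adjusted p = 0.0359). For MIR145, KLF6 and NOG the adjusted p of this change was 0.132. Diet, side and day changed together between the biopsies and cannot be told apart. Per the methods, average RNA integrity was also lower at restriction than at ad libitum feeding. Values of single arrays are not given in the sources used here, and its part was not tested.

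**Figure D4:**
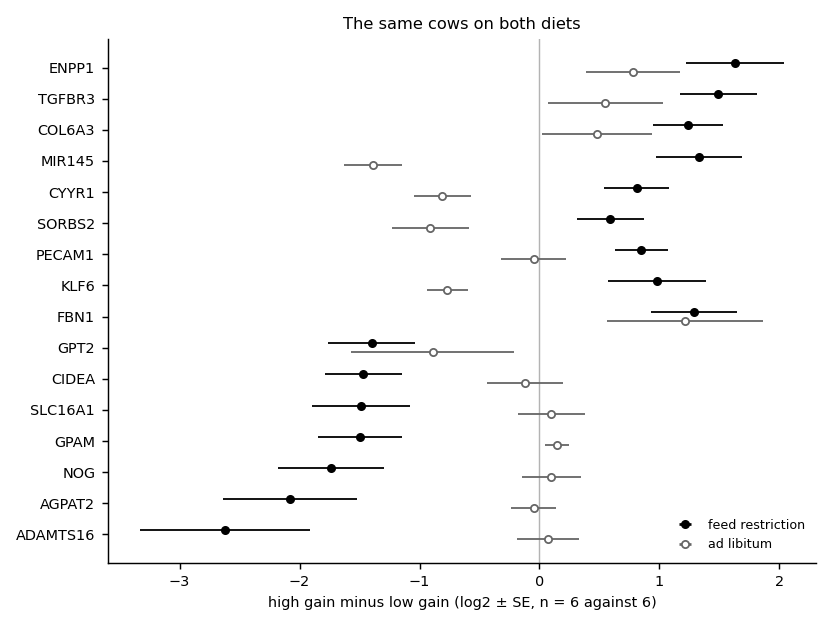
High gain minus low gain (log2 ± SE, 6 cows against 6) for 16 genes at feed restriction (filled) and at ad libitum feeding (open) in the same cows. Most open points lie nearer to 0 than the filled ones, which can follow from choosing genes with the restriction values known. FBN1 lies at 1.29 and 1.21. Genes with the open point on the other side of 0 include MIR145, CYYR1, SORBS2 and KLF6. They also include GPAM, NOG, ADAMTS16 and SLC16A1, whose open points lie close to 0.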

How the data were processed

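RNA of 24 biopsies was measured on Affymetrix Bovine 1.1ST arrays, 1 array per biopsy. The deposited log2 values are the authors' own, made with Affymetrix Expression Console per transcript cluster (GC correction, signal space transformation and RMA, per the submitters' processing notes), and no version is given in the sources used here. The depth of an array has no counterpart to read counts, and the 6 arrays a group limit the precision. The arrays titled as the first biopsy were taken as feed restriction, in the order of the sampling protocol. Of 26773 clusters, 1776 below the lowest annotated identifier were left out. The platform annotation gives 1 symbol for 18790 of the tested clusters, several for 385 and none for 5822, and a gene stands for its brightest cluster.

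The 12 arrays entered a model of high minus low gain per cluster (lmFit and eBayes of limma 3.58.1, R 4.3.3, two-sided), and the 24997 p-values were adjusted together by the Benjamini-Hochberg procedure. The fit was tested on simulated data. The labels number the animals, and nothing says that biopsies were repeated, so p measures the spread between cows. The gain groups hold different cows. The 3 biopsy days are not tied to cows in the sources used here and were not tested.

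Genes looked at were the 15 with the smallest p past 2-fold and the 5 with the widest gap between groups in each direction, microRNAs past 2-fold, for each list the 3 members of smallest p, and the 3 defining markers of each cell type. Not all list members and defining markers so chosen are named in the text. Others were picked after their values were seen. The 42 lists (29 pathways, 13 cell types, 839 of 894 entries measured) and the comparison were chosen with earlier results of these data known. The alternatives tried included a joint fit of 24 arrays with or without a block for cow, the methods' unmoderated test, median centring, quantile normalization, dim or saturated clusters left out, a trended robust prior, array weights, all clusters of the table, other fold thresholds, the mean of a gene's clusters and each cow left out. List counts with each cow left out were added after seeing the data. Some genes are not reported here.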

Additional observations from a re-analysis of the deposited data

Results flagged for a closer look

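In 35 of 326 groups of 6 cows (10.7%), 1 cow stood apart from the others of its group by Dixon's test for the named genes, where chance alone flags about 1 group in 20. L4 accounted for 10 of these, H2 for 7 and H5 for 6. L4 was low for TGFBR3 (11.34, next cow 12.31), COL6A3 (12.46, next 13.88), TUBA1D (8.23, next 8.77), C1R (11.12, next 12.52), TGFBR2 (10.62, next 11.69) and PDGFRA (10.39, next 11.58), and high for NDUFA10 (11.87, next 10.79), SLC25A4 (14.81, next 12.97), PISD (8.41, next 8.21) and S100A9 (10.46, next 8.96), all on the log2 scale. H2 was high for CCL2 (14.72, next 10.24), KLF6 (14.6, next 12.91), FSTL3 (12.17, next 9.04), FST (10.02, next 8.01) and SGPL1 (11.63, next 10.62) and low for CD109 (10.42, next 11.41) and ENPP2 (13.08, next 13.71). H5 was high for ADAMTSL4 (10.14) and C1QA (9.91) and low for EMC3 (14.19), PGD (12.64), SLC16A1 (11.06) and DGAT2 (17.74, next 19.16).

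The other cows were singled out less often. H4 was high for FFAR4 (11.72) and PNPLA2 (16.9), H6 was high for ENPP3 (8.21) and low for CD8A (6.45), H3 was low for LGALS12 (8.25, next 10.3), and H1 was low for MMP2 (14.13). L5 was high for PMP2 (11.37, next 7.07), L3 was high for VCAN (10.77), L1 was low for SPTLC2 (10.41), and L6 was low for TIMP4 (16.08) and ACSL1 (16.5, next 18.21) and high for ENG (15.44).

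For CYYR1 and SORBS2 the high minus low gain difference was not the same in the 2 biopsies by limma's test of that difference. It was 1.63 higher on the log2 scale at restriction than at ad libitum feeding for CYYR1 (adjusted p = 0.0316) and 1.5 higher for SORBS2 (adjusted p = 0.0359).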

How the results depend on the processing

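The number of clusters at an adjusted p under 0.05 was 0 in the fit reported and 1 with all 24 arrays in 1 fit, with the cow as a replicate block on those arrays (consensus correlation 0.108), with saturated clusters dropped and with array weights. It was 2 with a trended and robust prior and 0 to 2 with each cow left out (2 without L5, 1 without H6 or L6). No paired analysis was possible because the gain groups hold different cows, and the cow block pairs only the 2 arrays of a cow. With dim clusters left out, only clusters at or above the median signal were tested. Of these, 788 were higher and 626 lower at an unadjusted p under 0.05. Without overlap, 42 were higher and 38 lower. These counts come from fewer clusters than those of the fit reported, so a smaller count is not a smaller share. Past a fold of 1.5, 402 were higher and 372 lower, and past a fold of 3, 15 and 16. With each cow left out, those higher past 2-fold numbered 40 (without L4) to 124 (without H6), those higher without overlap 65 (without L4) to 149 (without L6) and those lower without overlap 88 (without L2) to 171 (without L6). A group of 5 separates more easily by construction. List medians moved in 5 of 672 comparisons, all with dim clusters left out, which removes members: collagens 0.346, T and NK cells -0.531, red blood cells -1.175, skeletal muscle 0.233 and nerve -0.713. Of 216 genes looked at, 207 kept their sign under every alternative run, and of the 165 with an unadjusted p under 0.05, 109 kept it. MDGA2 and the unnamed cluster passed an adjusted p of 0.05 under some alternatives, and ACSL1 without L6. The cause of these shifts was not tested otherwise.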

Other observations

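A few genes outside the rule for named genes and outside the lists were picked for the size of their difference after all values had been seen, so they are described only. They concern the relatives of ENPP1 and ENPP4, which cut phosphate esters outside the cell. ENPP5 read 10.19 to 14.24 on the log2 scale in high gain cows (median 12.91), against 13.6 to 15.91 in low gain cows (median 15.05), a difference of -2.53 ± 0.66 (SE, adjusted p = 0.427), and ENPP2, the autotaxin that makes lysophosphatidic acid and that adipocytes secrete, read 13.08 to 13.96 on the log2 scale in high gain cows (median 13.81), against 13.79 to 14.76 in low gain cows (median 14.13), at -0.48 ± 0.19 (SE, adjusted p = 0.485). Its unadjusted p was no longer under 0.05 without H2, L1 or L5. ENPP3 and ENPP6 had differences of 0.03 (adjusted p = 0.953) and -0.07 (adjusted p = 0.902). Within the family ENPP1 thus had the one positive difference with an unadjusted p under 0.05 in limma, and ENPP2, ENPP4 and ENPP5 had negative ones. ENPP1 differed by 0.78 at ad libitum feeding, ENPP4 by -0.01 and ENPP5 by -1.05.

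The ligands of TEK did not share a direction. ANGPT2, the angiopoietin that blocks the receptor, read 8.29 to 9.73 on the log2 scale in high gain cows (median 8.57), against 7.46 to 8.51 in low gain cows (median 8.08), at 0.78 ± 0.25 (SE, adjusted p = 0.434), whereas ANGPT1, which activates it, differed by -1.23, and ANGPT4 by -0.18 (adjusted p = 0.723). At ad libitum feeding ANGPT2 read 7.93 to 9.67 in high gain cows (median 8.44), against 8.24 to 10.36 in low gain cows (median 9.82), a difference of -0.89. Further large differences were those of CKB, the cytosolic creatine kinase, with 8.99 to 12.93 on the log2 scale in high gain cows (median 10.82), against 11.46 to 15.36 in low gain cows (median 13.3), at -2.41 ± 0.77 (SE, adjusted p = 0.434), of TLR8, a receptor for single-stranded RNA, at -2.05 ± 0.6 (SE, adjusted p = 0.427), of OSMR, the receptor for oncostatin M, with 12.05 to 15.39 on the log2 scale in high gain cows (median 13.09), against 10.7 to 12.62 in low gain cows (median 11.67), at 1.58 ± 0.48 (SE, adjusted p = 0.427), and of the tetraspanin CD9, at 1.34 ± 0.42 (SE, adjusted p = 0.434).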
